A study of Hordeum vulgare with 18 samples.

Results

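Transcript levels of 3 barley genes for iron proteins were followed in leaves under low and high nitrate supply. They are ferritin 4 (HORVU5Hr1G047730), a ferric reductase of the cytochrome b561 family (HORVU6Hr1G060720) and a protein that binds a cluster of 2 iron and 2 sulfur atoms (HORVU5Hr1G078960, the iron-sulfur protein gene hereafter). They are 3 of the 43050 genes counted, and all 3 were among the 19021 genes with a CPM (the read count of a gene scaled to a library of 1000000 reads on genes) above 1 in at least 3 libraries. For the levels given below, library sizes were taken over these 19021 genes. They were also multiplied by TMM (trimmed mean of M values) normalization factors of 0.933 to 1.13. The 3 genes come from the study's list of genes that were higher under low than under high nitrate in GP and M5. In M4 that list marks all 3 as not significant. The study's text instead calls 3 genes for iron-containing proteins lower under low nitrate in GP and M5, without giving their IDs. The differences between low and high nitrate were therefore used to choose the genes, and they are given below as a description without a test.

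Leaf RNA was taken from 3 wild-type genotypes, M4 (Laanaceur) and M5 (Oussama) from Morocco and the European cultivar Golden Promise (GP), each grown on sand with 0.5 mM nitrate (LN) or 5 mM nitrate (HN). Each of the 6 groups had 3 libraries, numbered by replicate, and each library came from the leaves of 1 to 2 plants. The LN solution differed from the HN solution in potassium, calcium, sulfate, sodium and chloride salts as well as in nitrate, while the iron chelate was the same. M4 LN held replicates 1, 3 and 4, M4 HN and GP HN 1, 2 and 4, GP LN 1, 2 and 3, and both M5 groups 1, 2 and 3. The labels name 1 planting day, 26 October, for every library that has a date, with harvest of replicate 1 on 9 November, replicate 2 on 16 November, replicate 3 on 22 March and replicate 4 on 12 April. These dates put the harvests at 14, 21, 147 and 168 days after planting, while the methods of the study give 14 days after sowing for the sampling, so that the age of the plants of replicates 2, 3 and 4 is uncertain. GP HN replicate 1 has an age of 14 days and no date, and the treatment label of M4 HN replicate 4 gives 0.5 mM nitrate, against its title and group. The LN and HN libraries of GP and of M4 thus differ in harvest as well as in nitrate supply. The leaf label was not checked on marker genes, since none of the entries of the gene table at hand carries an ID of this annotation.

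Ferritin forms a hollow protein shell that stores iron, and in plants it lies mainly in plastids. Membrane proteins of the cytochrome b561 family pass electrons from ascorbate across a membrane, and some of them reduce ferric to ferrous iron, the form that most iron transporters carry. Proteins with iron-sulfur clusters carry electrons in photosynthesis, respiration and nitrite reduction, so that iron and nitrogen use meet in the leaf. The annotation does not say in which membrane this reductase sits, nor which pathway the iron-sulfur protein serves.

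Per library, 11823626 to 22281661 reads fell on the sense strand of genes. A single library had 233 to 5309 reads on one of the 3 genes, so that counting error alone came to between 1.37 and 6.55% of a value. Replicates are separate plants, and their spread was larger (coefficients of variation of 6.76 to 55.5% within groups). Transcripts otherwise found in 1 genotype appeared in 2 libraries of GP. In GP HN replicate 1 the transcripts particular to M4 came to 16.4% of their summed level in M4, and in GP LN replicate 1 those particular to M5 came to 45.8% of that in M5. In M5 LN replicate 1 the M4 transcripts summed to 6.44%, with a median of 0 over these genes. The differences from GP averaged over both supplies and the fitted LN over HN differences in GP are given with and without both GP replicate 1 libraries. CPM values are not scaled by gene length, so levels were not compared between genes. In whole leaves, fewer cells that express a gene and less RNA per cell cannot be told apart.

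Ferritin 4 had its highest mean levels in M4 and its lowest in HN leaves of M5 and GP. In M4 it was at 126, 233 and 297 CPM in LN leaves (replicates 1, 3 and 4), against 101, 118 and 129 CPM in HN leaves (replicates 1, 2 and 4). In M5 it was at 155, 92.6 and 63.1 CPM in LN leaves, against 33.9, 51.6 and 28.7 CPM in HN leaves (replicates 1, 2 and 3 each). In GP it was at 76.3, 62.3 and 149.9 CPM in LN leaves (replicates 1, 2 and 3), against 47.2, 29.96 and 33.6 CPM in HN leaves (replicates 1, 2 and 4). The LN and HN libraries did not overlap in M5 or in GP, while in M4 the lowest LN library was just below the highest HN library. The LN libraries of ferritin 4 were uneven in all genotypes, and the high ones did not share a harvest. In GP the March library was the highest, in M5 it was the lowest, and in M4 both spring libraries stood well above the November one. In order of mean level (± SD, n = 3) the groups were M4 LN (219 ± 86.1 CPM), M4 HN (116 ± 14.2), M5 LN (103 ± 46.8), GP LN (96.2 ± 47.1), M5 HN (38.1 ± 12.0) and GP HN (36.9 ± 9.09), a 5.92-fold range. The ranges of neighbouring groups overlapped in this order, GP LN and M5 HN excepted.

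The ferric reductase gene had a narrower range. It was at 106, 123 and 108 CPM in M4 LN leaves, against 89.5, 91.4 and 108 CPM in M4 HN leaves. In M5 it was at 84.8, 97.1 and 91.95 CPM in LN leaves, against 44.9, 59.8 and 62.6 CPM in HN leaves. In GP it was at 93.6, 84.8 and 68.9 CPM in LN leaves, against 34.5, 25.1 and 53.6 CPM in HN leaves. LN and HN libraries were apart in M5 and GP and met in M4. The order of the group means was the same as for ferritin 4, with 112 ± 9.00 CPM in M4 LN, 96.5 ± 10.5 in M4 HN, 91.3 ± 6.17 in M5 LN, 82.4 ± 12.5 in GP LN, 55.8 ± 9.49 in M5 HN and 37.7 ± 14.6 in GP HN (SD, n = 3), a 2.98-fold range. Here too, only GP LN and M5 HN did not overlap among neighbours.

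The iron-sulfur protein gene was at 52.5, 96.7 and 82.2 CPM in M4 LN leaves, against 51.9, 55.8 and 63.7 CPM in M4 HN leaves. In M5 it was at 60.9, 66.4 and 56.04 CPM in LN leaves, against 21.7, 41.3 and 27.2 CPM in HN leaves. In GP it was at 70.5, 63.6 and 48.2 CPM in LN leaves, against 20.1, 11.2 and 35.7 CPM in HN leaves. M4 LN had the highest mean (77.1 ± 22.6 CPM), followed by M5 LN (61.1 ± 5.16), GP LN (60.8 ± 11.4), M4 HN (57.1 ± 5.98), M5 HN (30.1 ± 10.1) and GP HN (22.3 ± 12.4, SD, n = 3 each), a 3.46-fold range. The gap in this order lay between M4 HN and M5 HN, and all other neighbours overlapped. The mean of M4 HN leaves lay above those of M5 LN and GP LN leaves for ferritin 4 and the ferric reductase gene, and below all LN means for the iron-sulfur protein gene.

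**Figure D1:**
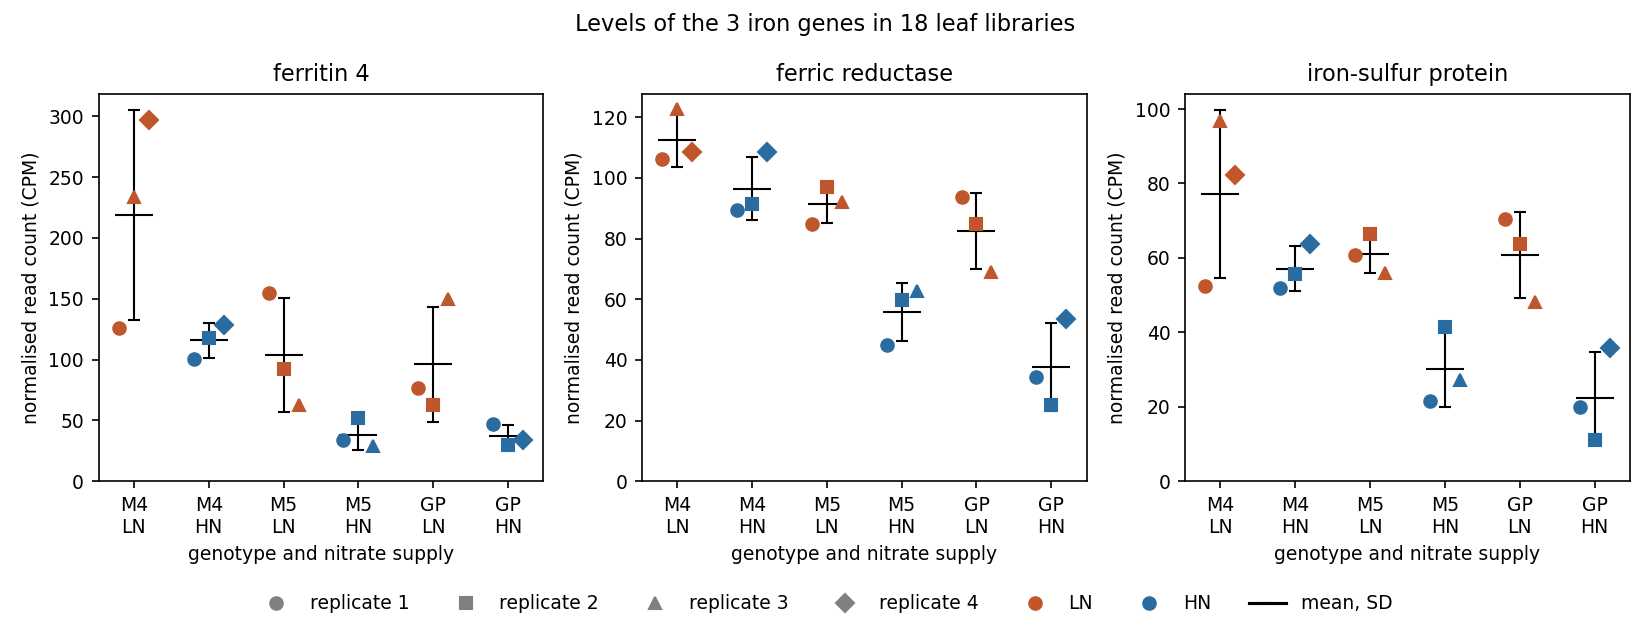
Normalised read count (CPM, vertical axis, from 0) of each gene in every library, by genotype and nitrate supply (horizontal axis). Points are libraries, their shape the replicate number, and bars the mean ± SD (n = 3). M4 HN libraries lie above all HN libraries of M5 and GP in each panel, and LN libraries lie above HN libraries in M5 and GP. The genes were chosen by their LN over HN difference in GP and M5.

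As fitted with the replicate number in the model, the LN over HN difference of ferritin 4 was 0.86 on the log2 scale in M4 (SE 0.432), 1.43 in M5 (SE 0.420) and 1.43 in GP (SE 0.447). That of the ferric reductase gene was 0.21 in M4 (SE 0.209), 0.71 in M5 (SE 0.202) and 1.27 in GP (SE 0.219). The iron-sulfur protein gene had 0.45 in M4 (SE 0.333), 1.03 in M5 (SE 0.319) and 1.69 in GP (SE 0.348). The median over all tested genes was between -0.01 and 0.02 in these comparisons. The study's list already marked the 3 genes as not significant in M4, so the lower M4 values are no separate finding. All LN libraries were above all HN libraries for 3 of 3 genes in M5 and 3 of 3 in GP, and for 0 of 3 in M4. Without M4 HN replicate 4, whose treatment label is that of LN, the count in M4 was 2 of 3, the iron-sulfur protein gene being the exception, and 2417 genes (12.7%) had no overlap in that setting, which was chosen after seeing the data. Over all 19021 genes this held for 5.38% in M5, 7.22% in GP and 7.16% in M4, but since the genes were chosen by this contrast nothing is read from these shares. Without both GP replicate 1 libraries it held for 2827 genes in GP, against 1373 with them. Without both GP replicate 1 libraries the fitted LN over HN difference in GP was 1.94 for ferritin 4, 1.16 for the ferric reductase gene and 1.62 for the iron-sulfur protein gene. That of ferritin 4 in GP was 0.96 without GP LN replicate 3, the high March library. In M4 the value of ferritin 4 was between 0.52 (without LN replicate 4) and 1.22 (without LN replicate 1). In M5 it was between 0.96 (without LN replicate 1, the highest M5 library) and 1.83 (without HN replicate 2).

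Harvest and nitrate supply can be separated, as far as the labels hold, where an LN and an HN library share a replicate number. This gave 7 pairs. In the GP replicate 1 pair the HN library has no date, so that a shared harvest rests on the number alone. Over all tested genes, libraries of the same number were no more alike in their deviations from group means (median r 0.00209) than others (0.0087). Ferritin 4 was higher in the LN library in 7 of 7 pairs, with ratios of 1.25 (M4, replicate 1) to 4.56 (M5, replicate 1) and a median of 2.08. The iron-sulfur protein gene was higher in 7 of 7, with ratios from 1.01 (M4, replicate 1) to 5.68 (GP, replicate 2) and a median of 2.06. For the ferric reductase gene this held in 6 of 7 pairs, and the exception, M4 replicate 4, had a ratio of 0.999. In this pair, which includes the HN library with the LN treatment label, ferritin 4 still had a ratio of 2.30. In the GP pairs the iron-sulfur protein gene had the highest ratio (3.51 and 5.68) and ferritin 4 the lowest (1.62 and 2.08), whereas ferritin 4 had the highest ratio in all 5 pairs of M4 and M5. The ratios of 3.51 and 1.62 are from GP replicate 1, where both libraries held transcripts of other genotypes, and without it 1 GP pair remains. These are descriptions of single pairs, and the difference between genotypes was not tested.

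**Figure D2:**
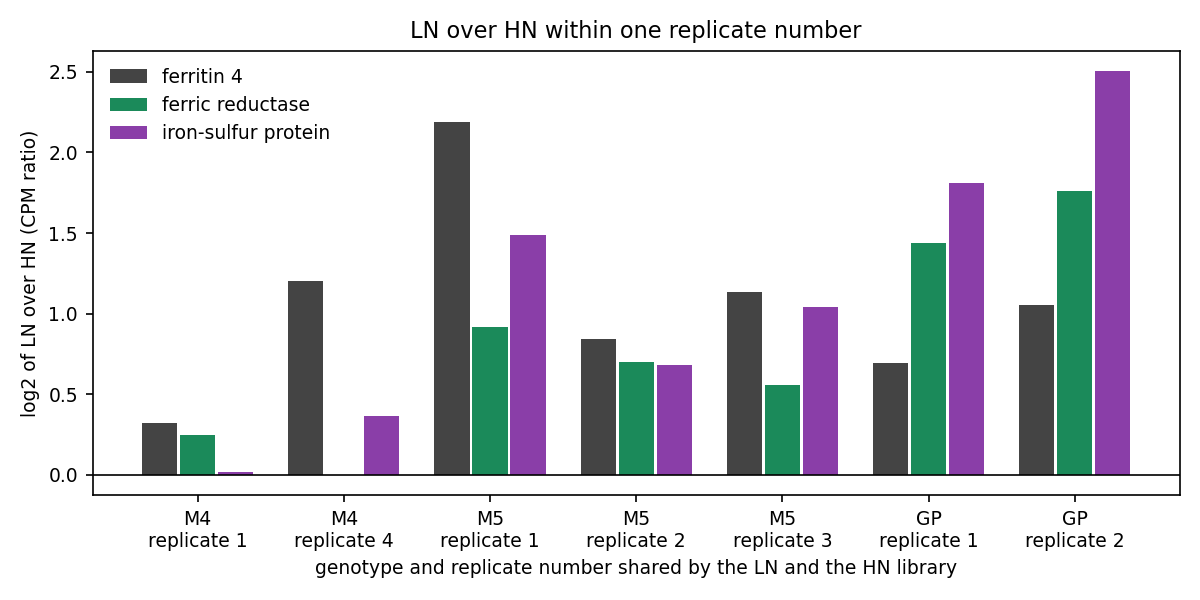
Log2 of the LN over HN ratio of CPM (vertical axis) for each LN and HN library with the same genotype and replicate number (horizontal axis). Bars are the 3 genes. All 21 bars but that of the ferric reductase gene in M4 replicate 4 (ratio 0.999) are above 0.

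Whether the genotypes differ in the level of these genes is a separate question, though not fully independent of how they were chosen. A mean over LN and HN is unlinked to the LN over HN difference only where both spread equally and share replicate numbers. In GP and M4 the replicate numbers differ. The pooled SD of log2 CPM was 0.65 under LN and 0.34 under HN for ferritin 4. It was 0.16 and 0.36 for the reductase gene, and 0.32 and 0.56 for the iron-sulfur protein gene. How far the choice of genes moved the values below was not tested. M4 leaves had more transcript of all 3 genes than GP leaves. Averaged over both supplies, ferritin 4 was 2.55-fold higher in M4 than in GP (log2 FC 1.35 ± 0.302 SE, edgeR quasi-likelihood test, adjusted p = 0.00798). The ferric reductase gene was 1.82-fold higher (log2 FC 0.86, SE 0.144, adjusted p = 0.0012, edgeR), and the iron-sulfur protein gene 1.75-fold (log2 FC 0.81, SE 0.225, adjusted p = 0.0274, edgeR). These 3 of 3 calls stand against 8.19% of all tested genes called higher in M4 than in GP and 7.7% called lower (15.9% in all). The genes were chosen by a contrast that includes the GP libraries, so nothing is read from this count. In pairs of libraries with the same supply and replicate number, the M4 library was above the GP library in 5 of 5 pairs for ferritin 4 (ratios of 1.56 to 3.93), in 5 of 5 for the ferric reductase gene (1.14 to 3.65) and in 4 of 5 for the iron-sulfur protein gene (0.744 to 4.98). The replicate 1 pairs of both supplies use the GP libraries that held transcripts of other genotypes. The ratios of 1.14 and 0.744 are from LN replicate 1, and without it only replicate 3 remains under LN. The call of the iron-sulfur protein gene was the weakest. It was lost without GP LN replicate 2, GP LN replicate 3, M4 HN replicate 1, M4 HN replicate 2 or M4 LN replicate 3 (adjusted p up to 0.0845, edgeR), while those of ferritin 4 and the ferric reductase gene held without any single library. All 3 calls held without both GP replicate 1 libraries, with log2 FCs of 1.40, 0.96 and 0.99 in the same order of genes. The number of genes called between M4 and GP was 3022, and 1909 without GP HN replicate 4.

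The excess of M4 over GP was fitted at 1.06 (ferritin 4), 0.33 (ferric reductase) and 0.19 (iron-sulfur protein) on the log2 scale under LN, and at 1.64, 1.39 and 1.43 under HN in the same order (SE of 0.205 to 0.433). For the reductase and iron-sulfur genes it was thus small under LN, and for ferritin 4 it was 1.06 or more under both supplies. This split contains the contrast used to choose the genes and was not tested. Under HN all 3 M4 libraries were above all 3 GP libraries and all 3 M5 libraries for each gene. Over all genes that held for 15.5% against GP and 12.9% against M5. HN leaves of GP and M5 are the low side of the contrast used to choose the genes, so nothing is read from these shares. Without M4 HN replicate 4, the library with the LN treatment label, ferritin 4 remains at 101 and 118 CPM in M4 HN leaves, above 47.2 CPM, the highest GP HN library.

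Between M4 and M5, ferritin 4 passed the test and the other genes did not. Averaged over both supplies, it was 2.34-fold higher in M4 than in M5 (log2 FC 1.22 ± 0.316 SE, edgeR quasi-likelihood test, adjusted p = 0.0187). Of all tested genes 15.1% were called between M4 and M5, 8.6% higher in M4 and 6.47% lower. The M4 library was above the M5 library in 3 of 4 pairs of the same supply and number. In the fourth pair, LN replicate 1, it was 0.815 of the M5 level. The call was lost without M4 HN replicate 2, M4 LN replicate 3 or M5 HN replicate 1 (adjusted p up to 0.074, edgeR). For the ferric reductase gene the fitted M4 over M5 ratio was 1.36 (95% interval 1.08 to 1.71, adjusted p = 0.0732, edgeR), with M4 above M5 in 4 of 4 pairs. It did not pass the test over all genes, but did with DESeq2 (adjusted p = 0.0428) and with a likelihood ratio test in edgeR (adjusted p = 0.0434). The iron-sulfur protein gene had a ratio of 1.39 (95% interval 0.975 to 1.98, adjusted p = 0.217, edgeR).

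No difference between M5 and GP passed the test. Ferritin 4 had a fitted M5 over GP ratio of 1.09 (95% interval 0.701 to 1.70, adjusted p = 0.879, edgeR), an interval that still holds a 1.70-fold difference. The ratio was 1.34 for the ferric reductase gene (1.07 to 1.67, adjusted p = 0.0941, edgeR) and 1.26 for the iron-sulfur protein gene (0.884 to 1.79, adjusted p = 0.476, edgeR). The reductase value passed with DESeq2 (adjusted p = 0.046). Without both GP replicate 1 libraries the log2 FC of M5 over GP was 0.22 for ferritin 4, 0.51 for the ferric reductase gene and 0.51 for the iron-sulfur protein gene, against 0.12, 0.42 and 0.33 with them, and none passed (adjusted p of 0.0964 or more, edgeR). Of all genes 5.41% were called higher in M5 than in GP and 7.08% lower (12.5% in all). Reads of all genotypes were aligned to the Morex reference, so that a difference in sequence from Morex and a difference in transcript level cannot be told apart for single genes. Reads assigned to genes came to between 76.3 and 77.7% in all libraries.

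**Figure D3:**
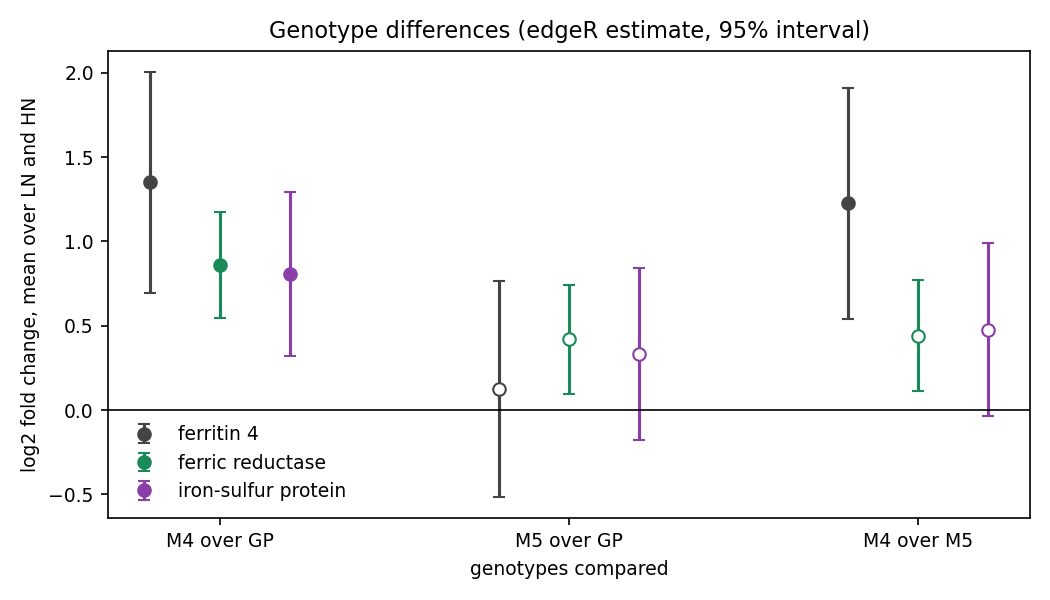
Fitted log2 fold change between genotypes, averaged over LN and HN (vertical axis), for the 3 genotype pairs (horizontal axis) and the 3 genes. Bars are 95% intervals, and filled points passed the edgeR test over all genes. All 3 genes pass for M4 over GP (log2 FC of 1.35, 0.86 and 0.81), ferritin 4 alone for M4 over M5, and none for M5 over GP.

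None of the 3 genes passed the test between harvests once groups were accounted for. Spring over November harvests gave log2 FCs of 0.18 for ferritin 4 (SE 0.268), 0.22 for the ferric reductase gene (SE 0.124) and 0.27 for the iron-sulfur protein gene (SE 0.20), each with an adjusted p of 1 in the edgeR quasi-likelihood test. Without both GP replicate 1 libraries these were 0.20, 0.26 and 0.35. Ferritin 4 had no common direction, as its spring over November ratio within LN groups was 2.1 in M4, 0.51 in M5 and 2.16 in GP, with 1 or 2 libraries on each side. The second November harvest over the first gave log2 FCs of -0.07, 0.0018 and 0.13 in the same order of genes (SE 0.309, 0.153 and 0.238, adjusted p of at least 0.953, edgeR). Of all genes, 0% were called in either harvest comparison, and an unadjusted p under 0.05 was found for 885 genes between spring and November and for 925 between the November harvests. For spring over November the edgeR likelihood ratio test called 5 genes and DESeq2 9. By the labels, libraries of a replicate number share their harvest, so that these tests cover the spread of libraries and not that of harvests.

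The reductase and iron-sulfur genes followed each other from library to library, while ferritin 4 had no correlation with either that passed the test. For each gene the deviation of log2 CPM from its group mean was taken, which leaves out both nitrate supply and genotype. Over the 18 libraries the deviations of the reductase and iron-sulfur genes had Pearson's r = 0.882 (exact two-sided permutation test within groups, p = 0.00373, adjusted p = 0.0112 over 3 pairs of genes) and Spearman's rho = 0.808 (exact permutation p = 0.00244, adjusted p = 0.00733). GP HN replicate 2 was the lowest and GP HN replicate 4 the highest library for both. Without these, the farthest from the median of the reductase gene, r was 0.714. Of all other tested genes, 0.0105% had a higher r with the reductase gene, and the same share with the iron-sulfur protein gene. The permutation test was passed without any single library (r between 0.786 and 0.925, adjusted p up to 0.0432). It was not passed without both GP replicate 1 libraries (r = 0.881, adjusted p = 0.0758), where fewer orders of the libraries exist, nor without the 3 GP HN libraries (r = 0.717, adjusted p = 0.0679), a setting chosen after seeing the data. With the replicate number removed as well as the group, r was 0.854.

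Ferritin 4 had r = 0.266 with the iron-sulfur protein gene (exact permutation p = 0.306, adjusted p = 0.46, rho = 0.368 with exact permutation p = 0.197 and adjusted p = 0.295) and r = -0.091 with the ferric reductase gene (exact permutation p = 0.709, adjusted p = 0.709, rho = -0.102 with exact permutation p = 0.719 and adjusted p = 0.719). Without GP LN replicate 3 and M5 LN replicate 1, the farthest on ferritin 4, these r were 0.460 and 0.096. In GP LN replicate 3 ferritin 4 was the highest of its group, while both other genes were the lowest. The ratio of ferritin 4 to the reductase gene ranged over 5.97-fold across the libraries, that of ferritin 4 to the iron-sulfur protein gene over 3.83-fold, and that of the reductase to the iron-sulfur protein gene over 1.81-fold.

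**Figure D4:**
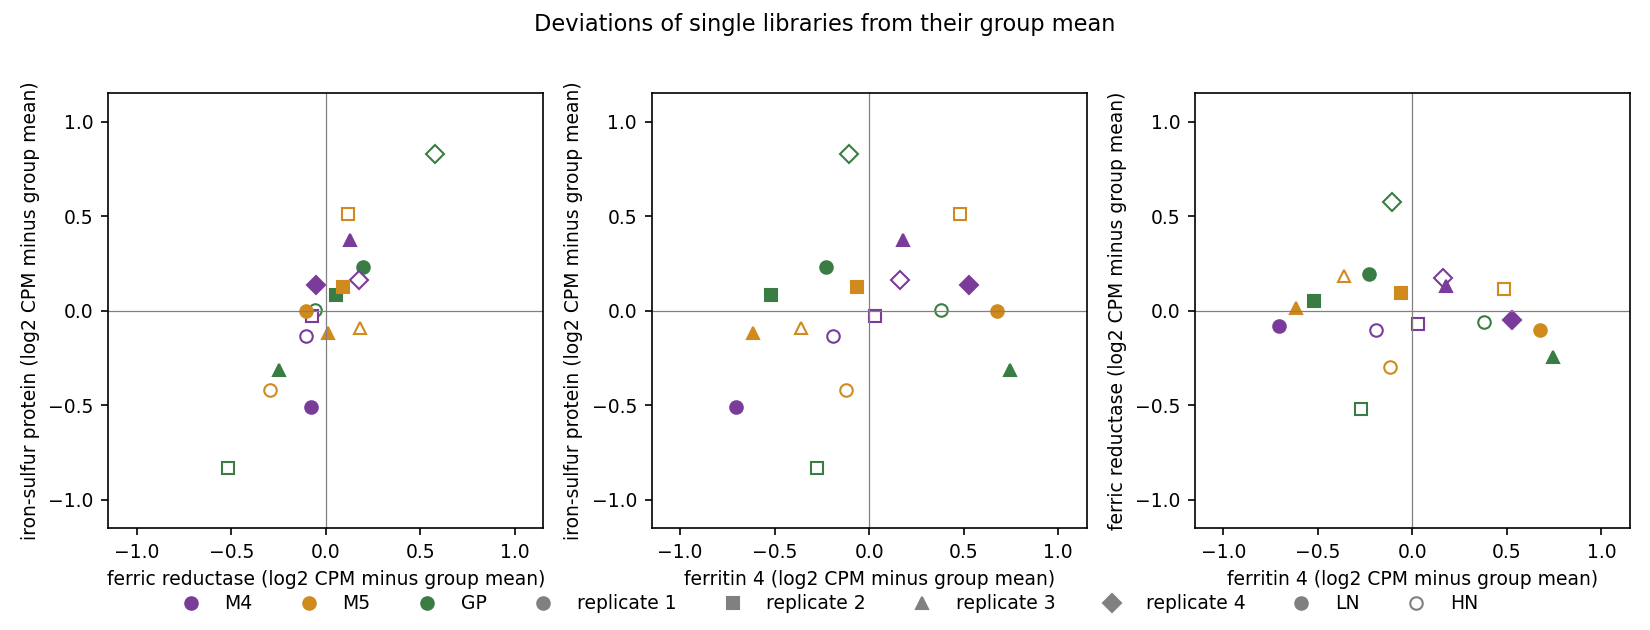
Deviation of log2 CPM from the group mean for pairs of the 3 genes (both axes, log2 units), 1 point per library. Colour is the genotype, shape the replicate number, and open points are HN. Points of the reductase and iron-sulfur genes lie along a rising line (r = 0.882), and those with ferritin 4 are scattered (r = 0.266 and -0.091).

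Spread between replicates also set the genes apart. Ferritin 4 varied more in LN leaves, with a pooled SD of 0.65 on the log2 scale in LN libraries and 0.34 in HN libraries, while the median gene had 0.28 and 0.23. The ferric reductase gene had 0.16 under LN and 0.36 under HN, and the iron-sulfur protein gene 0.32 and 0.56. Both of these thus spread more under HN when the genotypes were pooled, and GP HN replicates 2 and 4 were far apart. In M4 the iron-sulfur protein gene went the other way, with a coefficient of variation of 29.2% in LN and 10.5% in HN leaves. edgeR's biological coefficient of variation was 34.6% for ferritin 4, 18.1% for the ferric reductase gene and 27.1% for the iron-sulfur protein gene, against a median of 18.7% over all genes, and 13.3% of genes had a larger value than ferritin 4.

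Over the 18 libraries, group differences included, the reductase and iron-sulfur genes were each other's most similar gene of all tested (Pearson's r = 0.958 on log2 CPM). The next most similar to the reductase gene were HORVU1Hr1G063320 (r = 0.944, group means of 127 CPM in M4 LN and 58.1 in GP HN) and HORVU1Hr1G084520 (r = 0.942, 222 in M4 LN and 105 in GP HN). The next for the iron-sulfur protein gene were HORVU6Hr1G011990 (r = 0.940, 184 in M4 LN and 65.5 in GP HN) and again HORVU1Hr1G084520 (r = 0.935). The genes most similar to ferritin 4 were HORVU0Hr1G038680 (r = 0.917, between 6.36 and 11.3 CPM in single libraries), HORVU3Hr1G018690 (r = 0.887, 42.5 CPM in M4 LN and 6.97 in GP HN) and HORVU3Hr1G030460 (r = 0.884, 0 to 7.05 CPM in single libraries). None of the 6 genes without a name here is annotated in the tables at hand, and these values are a description across libraries that share group, harvest and depth. Ferritin 4 had r = 0.763 with the reductase gene and r = 0.795 with the iron-sulfur protein gene over the same libraries.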

How the data were processed

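Leaf RNA of 18 libraries was measured. The authors deposited whole-number counts per gene, without normalization, for both strands together, the forward and the reverse strand. They were made with STAR on the Morex reference (IBSC_v2) after trimming and removal of rRNA reads. Each file also holds 4 summary classes that name no gene and were left out. Of a library, 1.66 to 2.53% of reads were unmapped, 14.9 to 16.7% had several positions, 5.05 to 5.92% hit no gene and 0.00472 to 0.0104% were ambiguous. Reverse-strand counts were used, as the kit marks strand. A read that maps to several places counts for no gene, so that values of genes with near-identical copies are uncertain.

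Groups came from the sample titles. R 4.3.3 and edgeR 4.0.16 were used for the fit (TMM, CPM above 1 in at least 3 of 18 libraries), with the 6 groups and the replicate numbers as terms, as in the methods of the study. The quasi-likelihood test was adjusted by Benjamini-Hochberg over all 19021 genes and called at an adjusted p under 0.05. The SE is the absolute log2 FC over the square root of F. Pairing by replicate number follows the harvest dates of the labels, and GP HN replicate 1 has no date. Deviations from group means correlated with a median r of 0.00209 over 34 pairs of libraries with the same number, 8 of them above 0.1. Over 101 pairs with different numbers the median was 0.0087, with 22 above 0.1. The pairing thus rests on the labels and was not seen in the counts. Deviations used log2 CPM with a prior count of 2 and an exact permutation of replicates within groups over 46656 orders. Similar genes were the 3 with the highest r to each member. The fit and the permutation test were also run on simulated data. The simulated counts had the same spread for all genes and no replicate effect. The larger spread of ferritin 4 and the iron-sulfur protein gene was thus not covered. No libraries of a group were copies (their chi-square divided by its degrees of freedom was 13.8 or more). The members and lists were chosen with earlier results of these data known. Of 58438 entries in the gene table at hand 0 carry an ID of the files, so that no wider list of iron genes and no sequences were used. Other settings were DESeq2 1.42.0, voom in limma 3.58.1, the likelihood ratio test of edgeR, no replicate block, RLE normalization, no low-count filter, unstranded counts and leaving out libraries.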

Additional observations from a re-analysis of the deposited data

Results flagged for a closer look

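Reads on the forward strand, which entered no comparison, reached more than the 3 counts that a count of 0 allows in a few libraries. Up to 5 forward reads were counted for ferritin 4 (above 3 in the 3 M4 LN libraries), up to 5 for the ferric reductase gene (above 3 in M4 HN replicates 1 and 2 and M4 LN replicate 3) and up to 4 for the iron-sulfur protein gene (GP LN replicate 1). Over all libraries these were 0.0981%, 0.13% and 0.117% of the reads on either strand of the gene, against 5.55 to 6.17% over all genes of a library.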

How the results depend on the processing

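The log2 FCs of M4 over GP kept their direction and call for all 3 genes under the 8 alternatives of the fit (1.35 to 1.42 for ferritin 4, 0.86 to 0.96 for the ferric reductase gene and 0.81 to 0.99 for the iron-sulfur protein gene), as did ferritin 4 for M4 over M5 (1.19 to 1.34). The ferric reductase gene passed for M4 over M5 without the replicate block (log2 FC 0.55, adjusted p = 0.0151, edgeR), with the likelihood ratio test (0.44) and with DESeq2 (0.44), and for M5 over GP with DESeq2 (0.42). Without the replicate block no other call changed. Near 0, the second over first November value changed sign for the ferric reductase gene with limma-voom (-0.00024) and without the low-count filter (-0.00033), and for ferritin 4 without both GP replicate 1 libraries (0.012). Spring over November called 5 genes with the likelihood ratio test and 9 with DESeq2, against 0. Genes with all LN above all HN libraries in GP came to 2827 without both GP replicate 1 libraries, and in M4 to 2417 without M4 HN replicate 4, as fewer libraries have to be apart. The r of the reductase and iron-sulfur deviations was 0.881 and 0.717 in the settings that did not pass. Leaving out 1 library at a time, the genes called between M4 and GP ranged over 1909 to 3382. The log2 FCs of M4 over GP were 0.57 to 1.05 for the iron-sulfur protein gene. Those of M5 over GP were -0.15 to 0.44 for ferritin 4, 0.092 (without GP HN replicate 2) to 0.47 for the iron-sulfur protein gene and 0.28 to 0.52 for the ferric reductase gene, which passed without GP HN replicate 4. Those of M4 over M5 were 1.04 to 1.51 for ferritin 4, 0.15 (without M4 LN replicate 3) to 0.63 for the iron-sulfur protein gene and 0.33 to 0.52 for the ferric reductase gene, which passed without GP HN replicate 2, GP HN replicate 4, GP LN replicate 3 or M4 LN replicate 4. Spring over November gave -0.10 to 0.38 for ferritin 4, 0.074 to 0.31 for the ferric reductase gene and 0.061 to 0.37 for the iron-sulfur protein gene, the lower values of both without GP HN replicate 4, and the second over first November harvest -0.29 to 0.19 for ferritin 4, -0.083 to 0.14 for the ferric reductase gene and -0.049 to 0.36 for the iron-sulfur protein gene. LN over HN in M4 was 0.093 to 0.43 for the ferric reductase gene and 0.088 to 0.68 for the iron-sulfur protein gene. The r between ferritin 4 and the ferric reductase gene was -0.29 to 0.084. Where a value moved, the cause was not tested.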
